A study of Mus musculus with 2 samples.

Results

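The immunoglobulin heavy and kappa variable (V) segments are the gene pieces that each B cell joins to build the antigen-binding end of its receptor. All rows whose symbol begins with Ighv or Igkv were taken, which gave 345 of the 32285 rows measured: 185 Ighv rows on chromosome 12 and 160 Igkv rows on chromosome 6. They were read in spleen immune cells of C57BL/6 mice, in 1 library labelled WT and 1 library labelled RPA1 conditional knockout (CKO). The labels give no Cre driver, no deleted exon, no age and no number of mice, and the series title concerns RPA1, a subunit of a single-stranded DNA-binding protein, in T cells. With 1 library for each genotype no difference between genotypes could be tested, and the values describe these 2 libraries. Raw unique molecular identifier (UMI) counts were read in B cell barcodes, defined as barcodes with at least 2 UMIs of Cd79a, which encodes a chain of the B cell receptor complex, and 0 UMIs of the T cell receptor complex genes Cd3d and Cd3e.

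In a developing B cell the RAG proteins cut beside 1 V segment and join it to D and J segments in the heavy chain locus, or to a J segment in the kappa locus. A mature B cell carries in general 1 productive heavy chain and 1 productive light chain, kappa or lambda, so the V segment it transcribes marks the choice it made during development. B-1 cells, a self-renewing subset, are known for a restricted set of segments, among them Ighv11-2 with Igkv14-126, which together form a receptor for phosphatidylcholine.

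Sequences are shown for the segments on which the results turn, from the GENCODE transcripts of build GRCm38 (mm10), 5′ to 3′ on the coding strand. Ighv11-2 (chr12:114048241-114048540, minus strand, the last 300 of 307 bases of its V exon) and Igkv14-126 (chr6:67896345-67896642, plus strand, its 298-base V exon) are the pair that stood out in B-1-like barcodes. Ighv1-26 (chr12:114788372-114788671, minus strand, the last 300 of 305 bases) and Igkv1-117 (chr6:68121528-68121827, plus strand, the last 300 of 313 bases) were the most used heavy and kappa segments by the mean of both libraries. Igkv2-107 (chr6:68326489-68326752, plus strand, 264 bases) is annotated as a pseudogene and was more frequent in marginal zone-like than in follicular-like barcodes.
Ighv11-2: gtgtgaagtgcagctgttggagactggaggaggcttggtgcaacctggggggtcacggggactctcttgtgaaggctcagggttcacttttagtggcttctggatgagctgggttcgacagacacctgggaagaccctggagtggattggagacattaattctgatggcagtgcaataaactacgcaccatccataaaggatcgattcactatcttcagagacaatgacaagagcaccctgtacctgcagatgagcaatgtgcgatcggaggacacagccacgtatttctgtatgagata
Igkv14-126: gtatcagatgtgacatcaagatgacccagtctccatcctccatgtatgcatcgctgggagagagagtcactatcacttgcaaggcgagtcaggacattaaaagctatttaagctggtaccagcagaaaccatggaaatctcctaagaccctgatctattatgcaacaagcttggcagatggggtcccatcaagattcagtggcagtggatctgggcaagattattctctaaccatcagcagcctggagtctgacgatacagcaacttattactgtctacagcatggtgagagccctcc
Ighv1-26: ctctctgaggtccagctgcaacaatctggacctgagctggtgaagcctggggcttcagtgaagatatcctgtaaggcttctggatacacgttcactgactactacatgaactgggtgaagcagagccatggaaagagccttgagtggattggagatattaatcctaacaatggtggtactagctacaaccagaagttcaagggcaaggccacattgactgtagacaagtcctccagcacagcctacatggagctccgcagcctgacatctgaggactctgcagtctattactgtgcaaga
Igkv1-117: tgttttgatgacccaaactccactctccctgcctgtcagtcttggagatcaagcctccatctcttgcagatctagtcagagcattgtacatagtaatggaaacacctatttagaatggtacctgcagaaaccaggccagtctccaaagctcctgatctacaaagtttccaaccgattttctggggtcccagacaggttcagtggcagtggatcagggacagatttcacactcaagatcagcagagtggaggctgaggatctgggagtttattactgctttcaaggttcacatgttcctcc
Igkv2-107: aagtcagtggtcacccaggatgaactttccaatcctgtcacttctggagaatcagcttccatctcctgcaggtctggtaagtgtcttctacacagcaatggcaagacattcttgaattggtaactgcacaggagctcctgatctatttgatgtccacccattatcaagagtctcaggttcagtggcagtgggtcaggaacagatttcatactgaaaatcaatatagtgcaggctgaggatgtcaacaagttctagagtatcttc

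The last 90 bases of the V exon are set side by side for 3 much used members of the Igkv1 family, because these segments can be told apart only by such differences. They are Igkv1-117 (chr6:68121738-68121827), Igkv1-110 (chr6:68271178-68271267) and Igkv1-135 (chr6:67610419-67610508), all on the plus strand. Capitals mark the positions at which the 3 segments are not all alike.
Igkv1-117, last 90 bases: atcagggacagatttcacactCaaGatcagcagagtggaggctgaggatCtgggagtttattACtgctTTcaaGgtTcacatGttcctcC
Igkv1-110, last 90 bases: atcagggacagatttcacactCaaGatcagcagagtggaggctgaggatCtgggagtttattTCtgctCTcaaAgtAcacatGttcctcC
Igkv1-135, last 90 bases: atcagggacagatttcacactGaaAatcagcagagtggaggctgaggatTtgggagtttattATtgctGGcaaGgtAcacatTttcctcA
Over these 90 bases 11 positions differ among the 3 segments. Over the whole V exon Igkv1-117 and Igkv1-110 share 96.8% of bases, whereas Igkv1-135 shares 79.6% with Igkv1-117 and 80.2% with Igkv1-110. Ighv11-2 and Ighv11-1 share 98.7%, so UMIs of these 2 heavy segments are uncertain.

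The libraries held 13291 WT and 12958 CKO barcodes. After filtering, 7176 WT barcodes (56.6%) and 9834 CKO barcodes (78.0%) were B cell barcodes, with median depths of 4665 and 4456 UMIs. Rpa1 itself stood at 34.6 CPM, a gene's UMIs scaled to the same total in each library, in WT and 33.0 CPM in CKO B cell barcodes. These values check the labels only if B cells carry the deletion and the 3′ tag lies in the deleted part. Neither was given in the sources used here. Of the B cell barcode sequences, 24 in WT and 27 in CKO also occurred in the other library, and 10.4% and 9.62% had high doublet scores. Summed marker genes of other cell types in B cell barcodes differed most for erythroid genes, at 15.7 CPM in WT and 384 CPM in CKO, and for natural killer cell genes, at 88.9 and 192 CPM. Of the 4 genes in each list 0 were at 0 UMIs in either library, and the part of these cells in the values over all B cell barcodes was not tested. Within follicular-like, transitional-like, marginal zone-like and B-1-like barcodes, described below, the erythroid sum was at most 27.7 CPM and the natural killer sum at most 13.6 CPM. In cycling-like barcodes the erythroid sum was 20.1 CPM in WT and 5535 CPM in CKO, and the natural killer sum 11.4 and 186 CPM.

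V segment UMIs were sparse, and the share of barcodes with a heavy segment was lower in the CKO library than in the WT library. An Ighv UMI was present in 49.9% of WT barcodes (48.7 to 51.1%) and 44.7% of CKO barcodes (43.7 to 45.7%). For Igkv the shares were 36.9% (35.8 to 38%) and 39.4% (38.5 to 40.4%). All intervals given are exact 95% intervals and cover counting error only, not the spread between mice. The CKO share was 0.896 times the WT share for Ighv (0.857 to 0.936) and 1.07 times for Igkv (1.02 to 1.12).

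These shares were far above those in T cell barcodes, in which rearranged immunoglobulin genes are not expected. T cell barcodes had at least 2 UMIs of Cd3d and Cd3e together and 0 UMIs of Cd79a. This definition leaves out barcodes with Cd79a RNA, so their V shares are in part set by it. Among barcodes that met neither definition, an Ighv UMI was found in 19.5% in WT and 9.89% in CKO. The source of V UMIs in T cell barcodes was not tested. Among 3381 WT and 724 CKO T barcodes, with median depths of 6829 and 6143 UMIs, an Ighv UMI was found in 0.385% and 0.414%. An Igkv UMI was found in 0.473% and 0.138%. With every barcode thinned to 1000 UMIs the B cell shares were 14.6% and 12.8% for Ighv and 10.3% and 10.8% for Igkv. The V exon lies at the 5′ end of the mRNA and the assay reads the 3′ end. For each 1000 UMIs of the heavy chain constant genes Ighm and Ighd there were 26.6 Ighv UMIs in WT and 24.8 in CKO. Other heavy chain constant genes were left out of this sum, among them Ighg2c (13618 UMIs in WT and 13 in CKO) and Igha (9656 and 15483). For each 1000 Igkc UMIs there were 9.17 and 11.1 Igkv UMIs.

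B cell subsets differed in which chain was seen, in the same direction in both libraries. Subsets are Leiden clusters of the B cell barcodes, made without any immunoglobulin gene and named from marker genes, hence the suffix "-like". Clusters that the markers left unnamed held 1703 WT and 2781 CKO barcodes, which belong to none of these subsets. Transitional-like barcodes (806 WT, 1542 CKO) carry the markers of newly formed B cells: Vpreb3, a partner of the heavy chain in immature cells, had a UMI in 95% and 96.6% of them, and Cd93 in 11.8% and 13.7%. Marginal zone-like barcodes (531 and 710) belong to the cluster marked by the complement receptor Cr2, present in 95.1% and 97.6%. B-1-like barcodes (240 and 322) were marked by the transcription factor Bhlhe41, in 53.3% and 59.3%, and by Cd5, in 16.7% and 20.8%. Their count of Itgam, a B-1 marker of body cavities, was low, at 2.89 and 4.17 CPM.

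In follicular-like barcodes, the most numerous naive subset, an Ighv UMI was present in 53.0% in WT and 48.3% in CKO. The transitional-like shares were lower, at 38.6% and 30.7%, with median depths of 3974 and 3694 UMIs against 4165 and 3882 in follicular-like barcodes. For Igkv the order was the opposite: 45.2% and 46.8% of transitional-like barcodes had a UMI, against 32.9% and 33.6% of follicular-like ones. Transitional-like barcodes were thus poor in Ighv UMIs and rich in Igkv UMIs in both libraries, and remained so at equal depth. After thinning, the transitional-like share was 0.670 times the follicular-like share for Ighv in WT (0.536 to 0.831) and 0.598 times in CKO (0.497 to 0.717). For Igkv it was 1.59 times (1.29 to 1.96) and 1.73 times (1.47 to 2.03).

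Heavy chain constant UMIs, those of Ighm and Ighd, did not follow the Ighv UMIs between these subsets. They numbered 30.5 for each barcode in WT and 27.7 in CKO transitional-like barcodes, above the 20.7 and 19.2 in follicular-like ones. For each 1000 of them there were 17.9 and 14.7 Ighv UMIs in transitional-like barcodes and 42.1 and 39.1 in follicular-like barcodes. The deeper marginal zone-like barcodes held 33.8 and 31.9 constant UMIs each, and B-1-like ones 45.0 and 46.0. For each 1000 of these there were 16.4 and 15.4 Ighv UMIs in marginal zone-like and 18.2 and 17.9 in B-1-like barcodes.

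Marginal zone-like barcodes were poor in Ighv UMIs as well. An Ighv UMI was found in 35% in WT and 33.0% in CKO although their depths, 7940 and 7838 UMIs, were higher than those of follicular-like barcodes. Thinned shares were 0.267 times the follicular-like share in WT (0.173 to 0.395) and 0.368 times in CKO (0.263 to 0.502). For Igkv, 41.8% and 44.2% of marginal zone-like barcodes had a UMI as found, above follicular-like barcodes. At equal depth the order did not hold, with thinned ratios of 0.683 (0.472 to 0.963) and 0.986 (0.752 to 1.28). B-1-like barcodes had an Ighv UMI in 48.8% and 44.1%, and an Igkv UMI in 47.1% and 43.8%, at depths of 7709 and 8281 UMIs. At equal depth their Ighv share was 0.432 times the follicular-like share in WT (0.258 to 0.681) and 0.377 times in CKO (0.229 to 0.588). Their Igkv share, higher than the follicular-like share as found, was not higher at equal depth: 0.981 times in WT (0.619 to 1.49) and 0.497 times in CKO (0.281 to 0.819).

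**Figure D1:**
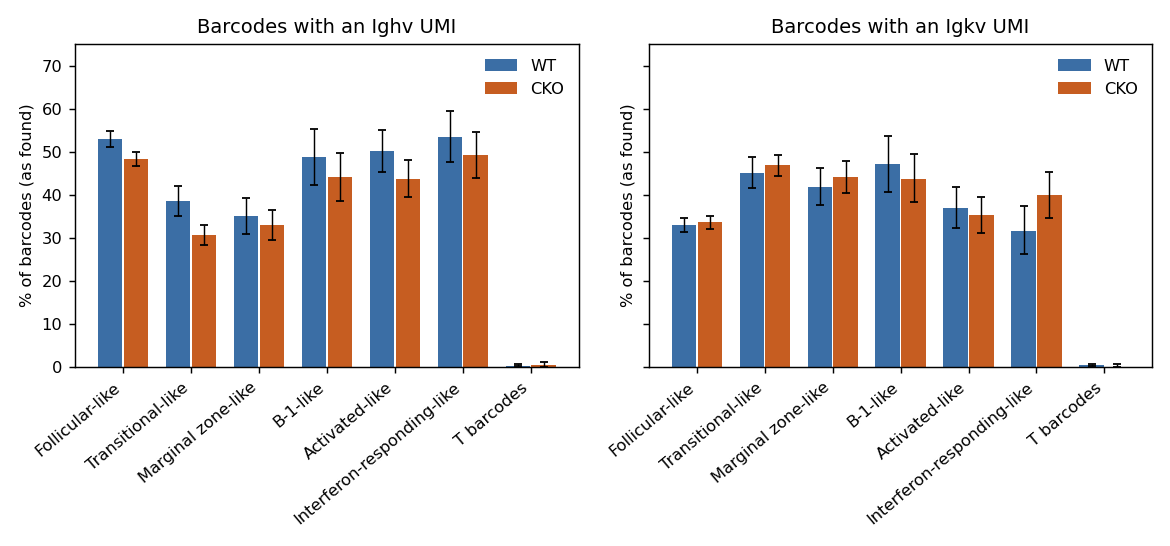
Share of barcodes with at least 1 Ighv UMI (left) or Igkv UMI (right), in percent, by B cell subset and in T cell barcodes, as found and before thinning. Bars are the WT and CKO libraries and error bars are exact 95% intervals for counting error. Transitional-like and marginal zone-like bars are lower than follicular-like bars for Ighv and higher for Igkv, and T barcodes lie between 0.138% and 0.473%.

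Nearly every functional segment was seen. Of 113 Ighv rows annotated as functional V genes 104 had a UMI, and of 100 functional Igkv rows 99 had one. The functional segments without a UMI in either library were Ighv5-12-4, Ighv7-2, Ighv16-1, Ighv6-4, Ighv1-16, Ighv1-24, Ighv1-62-1, Ighv8-9, Ighv8-13 and Igkv3-3. Among them, Ighv1-16 and Ighv1-24 share 98% of V exon bases with each other, as do Ighv8-9 and Ighv8-13. The part of such likeness in the missing UMIs was not tested. The 20 detected of 70 Ighv pseudogenes held 1.24% of all Ighv UMIs, and the 34 detected of 60 Igkv pseudogenes held 1.64% of Igkv UMIs. The pseudogene rows with the most UMIs were Igkv2-107, with 41 in WT and 38 in CKO, and Ighv1-2, with 28 and 25.

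So that a cell full of antibody mRNA would not set the picture, each barcode was given 1 vote. A barcode was assigned a segment when its top segment had at least 2 UMIs and at least 80% of the barcode's UMIs of that locus. Under this rule 1118 WT barcodes (15.6%) and 1171 CKO barcodes (11.9%) were assigned an Ighv segment, a CKO share 0.764 times the WT share (0.704 to 0.830). An Igkv segment was assigned in 543 (7.57%) and 753 (7.66%) barcodes, a ratio of 1.01. The lower heavy share in CKO was also present within follicular-like barcodes, at 0.783 times (0.690 to 0.888), and within transitional-like barcodes, at 0.629 times (0.457 to 0.868). These assigned shares are not at equal depth. The share of barcodes with any Ighv UMI is a different measure. For it, the CKO over WT ratios as found were 0.912 (0.852 to 0.977) and 0.795 (0.688 to 0.920) in these 2 subsets. After thinning they were 0.898 (0.799 to 1.01) and 0.803 (0.619 to 1.04). Both thinned intervals include 1. Over all B cell barcodes the thinned ratio was 0.881 (0.811 to 0.957). In B-1-like barcodes the ratio of assigned shares was 1.32, with an interval of 0.826 to 2.13. No comparison of these ratios among subsets was tested.

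Ighv usage was spread over many segments. Assigned barcodes used 92 Ighv segments in WT and 90 in CKO, 83 of them in both, and the 10 most used held 34.1% of assigned barcodes on average. Ighv1-26 had the highest mean of both libraries, with 54 of 1118 WT barcodes (4.83%, 3.65 to 6.26%) and 58 of 1171 CKO barcodes (4.95%, 3.78 to 6.36%). Ighv9-3 followed at 3.85% and 5.04%, then Ighv3-6 at 3.76% and 3.84%, and Ighv6-3 at 3.85% and 3.42%. The intervals of these 4 overlap, so their order cannot be told apart at this depth. The others of the 10, Ighv5-4, Ighv1-64, Ighv1-19, Ighv1-82, Ighv1-81 and Ighv2-2, lay between 2.05% and 3.49%.

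Igkv usage was more concentrated. Assigned barcodes used 71 Igkv segments in WT and 72 in CKO, and the 10 most used held 55%. Igkv1-117 was assigned in 10.1% of WT barcodes (7.72 to 13%) and 10.8% of CKO barcodes (8.63 to 13.2%). Igkv12-44 was assigned in 11.8% (9.20 to 14.8%) and 8.76% (6.84 to 11%), overlapping Igkv1-117 in both libraries. Its high share depended on the UMI minimum: in follicular-like barcodes it was 13.7% and 13% at 2 UMIs, but 5.29% and 4.70% at 1 UMI, below Igkv1-117 at 6.80% and 6.58%. The next, Igkv1-110 at 6.45% and 6.64% and Igkv1-135 at 5.89% and 7.04%, also overlap each other. Igkv12-46, Igkv10-96, Igkv17-127, Igkv6-15, Igkv5-43 and Igkv17-121 lay between 2.21% and 4.91%.

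**Figure D2:**
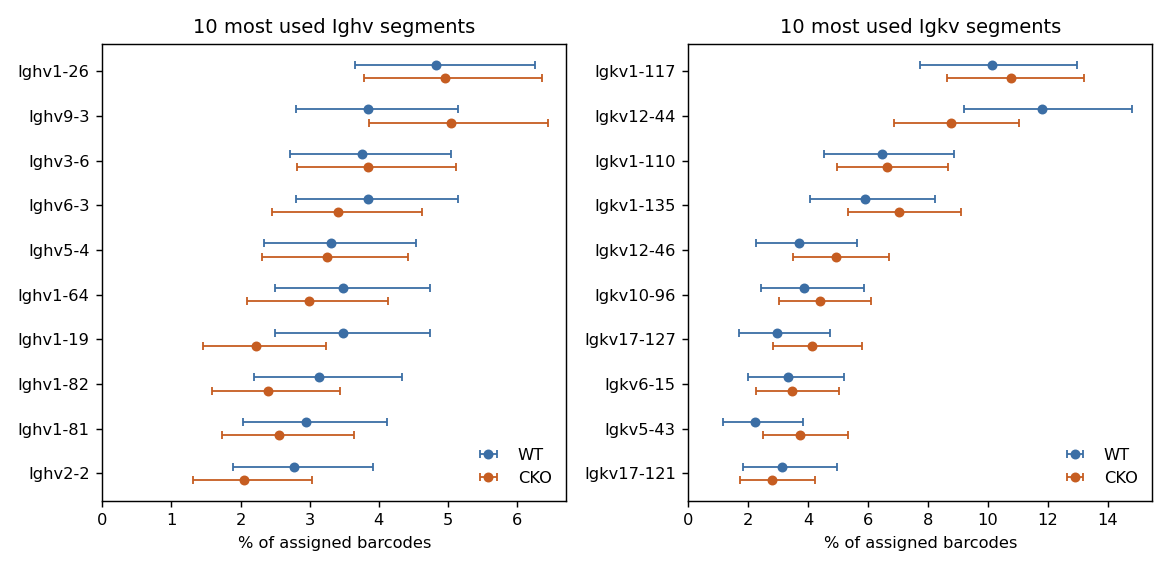
Share of assigned barcodes, in percent, for the 10 most used Ighv (left) and Igkv (right) segments in the WT and CKO libraries. Points are shares and bars are exact 95% intervals for counting error. Every WT interval overlaps the CKO interval of the same segment, and Igkv1-117 and Igkv12-44 stand above the other kappa segments.

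By family, the large Ighv1 group (65 of its 93 rows detected) held 53.8% of assigned barcodes in WT and 52.2% in CKO. Ighv5 followed with 12.3% and 10.8%, and Ighv9 held 5.64% and 7.09%. Among kappa families Igkv1 held 24.3% and 26.2% with 13 rows, and Igkv12 held 18.6% and 16.2% with 12 rows. Igkv4, the kappa family with the most rows at 33, held 5.34% and 3.59%. Each family with assigned barcodes in both libraries had a CKO over WT ratio whose interval included 1.

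Position along the locus was compared because the heavy chain locus contracts during development so that distant V segments can reach the D segments. Functional segments were split into 4 groups of nearly equal size by their order from the D or J side. The Ighv groups held 23.1%, 23.7%, 25.1% and 28.1% of the barcodes assigned a functional segment in WT, from nearest to farthest, and 20.7%, 26.9%, 25.6% and 26.7% in CKO. The heavy locus was thus used nearly evenly. The Igkv group farthest from the J segments held 42.6% in WT (38.4 to 46.9%) and 43.6% in CKO (40 to 47.2%), while the third group held 12.5% and 12.6%. Igkv1-117, Igkv1-110, Igkv1-135 and Igkv14-126 all lie in that farthest group. Kappa segments lie in both orientations, and the 38 functional segments on the plus strand held 51.3% and 52.8% of assigned barcodes.

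**Figure D3:**
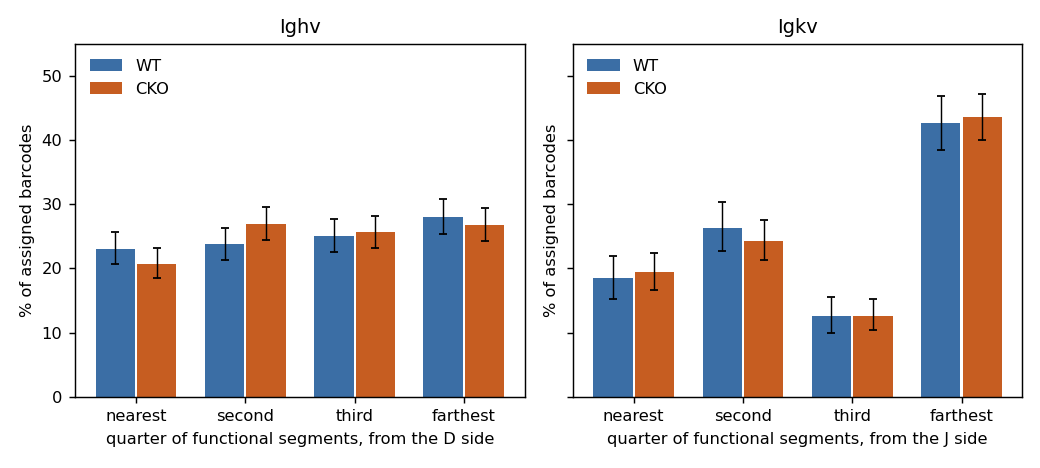
Share of assigned barcodes, in percent, by the 4 position groups of the functional segments ordered from the D side (Ighv, left) or the J side (Igkv, right). Bars are the WT and CKO libraries and error bars are exact 95% intervals. The Ighv groups lie between 20.7% and 28.1%, and the farthest Igkv group stands at 42.6% and 43.6%.

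The heavy segments nearest the D segments form the list fixed for that end of the locus. Ighv5-4 had 37 and 38 assigned barcodes in WT and CKO, Ighv2-2 had 31 and 24, and Ighv5-6 had 18 and 19. Ighv2-3 had 4 in each library and Ighv5-2, the segment preferred in fetal and newborn B cells, had 3 and 2. The pseudogene Ighv5-1 had none, with 2 UMIs in WT and 0 in CKO.

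Between genotypes, segment usage by barcode was much alike. Over the 42 Ighv segments with at least 20 assigned barcodes, 3 were at least 1.5-fold higher in CKO and 4 lower, which is 16.7%. Over the 17 Igkv segments 3 were higher and 0 lower, which is 17.6%. Of the segments in either locus 0 had a ratio with an interval clear of 1. Across segments, the Pearson correlation of usage between libraries was 0.941 over 99 Ighv and 0.949 over 80 Igkv segments, a description of libraries that share gene models, chemistry and strain.

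The segments past 1.5-fold rested on few barcodes. Ighv7-3 was assigned in 8 WT and 17 CKO barcodes, a usage ratio of 2.03 (0.83 to 5.43). Ighv1-53 had 11 and 20 barcodes (1.74, 0.79 to 4.01) and Ighv1-55 had 15 and 26 (1.65, 0.84 to 3.36). On the lower side, Ighv1-19 had 39 and 26 (0.64, 0.37 to 1.07), Ighv1-50 had 21 and 13 (0.59, 0.27 to 1.24), Ighv1-72 had 19 and 13 (0.65, 0.30 to 1.39) and Ighv1-52 had 13 and 8 (0.59, 0.21 to 1.53). Among kappa segments Igkv6-23 had 4 and 17 (3.06, 1.0 to 12.5), Igkv5-43 had 12 and 28 (1.68, 0.83 to 3.63) and Igkv19-93 had 9 and 21 (1.68, 0.74 to 4.17). Igkv3-4 and Igkv12-44 had ratios of 0.67 (0.29 to 1.54) and 0.74 (0.52 to 1.07). Igkv14-126, one of the B-1 segments, was assigned in 11 and 3 barcodes, a ratio of 0.197 (0.0352 to 0.744), but had fewer than 20 barcodes in all. With 1 UMI it was assigned in 23 and 24 barcodes. Ighv1-72, Ighv1-52 and Igkv19-93 were chosen after their values were seen.

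Counted by UMIs in place of barcodes, the libraries looked less alike. Over all genes with at least 20 summed UMIs, 8.6% of 13621 were at least 1.5-fold apart in CPM, 5.47% higher in CKO and 3.13% lower. Of 86 Ighv segments 28 were past that fold, 8 higher and 20 lower, and of 72 Igkv segments 27 were, 11 higher and 16 lower. Scaled to the UMIs of the heavy locus alone, the Ighv split was 16 higher and 12 lower. The median log2 ratio was -0.18 for Ighv and 0.01 for Igkv, against 0.05 over all genes. Pearson correlations of UMIs between libraries were 0.820 for Ighv and 0.838 for Igkv, and correlations of the number of barcodes with a UMI were 0.968 and 0.976.

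Several of these differences rested on 1 barcode. Of the 20 lower Ighv segments 7 had at least 25% of their UMIs in 1 barcode, and of the 16 lower Igkv segments 11 did. Ighv14-3 had 251 UMIs in WT and 44 in CKO, a CPM ratio of 0.130 (0.0918 to 0.179), but 198 of the WT UMIs came from 1 barcode. Without that barcode the ratio was 0.613 (0.401 to 0.932), and by barcodes with a UMI, 27 and 34, it was 0.919 (0.538 to 1.58). In Igkv12-44 202 of 547 CKO UMIs were in 1 barcode, and the CPM ratio moved from 1.5 to 0.945 without it. Ratios also moved for Igkv12-46 (182 UMIs in 1 CKO barcode, 2.20 to 1.32), Igkv5-43 (179 in 1 WT barcode, 0.390 to 1.18), Ighv1-85 (108 in 1 CKO barcode, 2.57 to 0.909) and Ighv1-69 (74 in 1 WT barcode, 0.489 to 0.941). Ighv2-2, with 89 UMIs in 1 WT barcode, kept a low ratio without it, at 0.330 against 0.243. Each of these barcodes belonged to the plasma cell-like cluster. That cluster held 215 of the 337 WT UMIs of Ighv2-2 and 0 of its 111 CKO UMIs. By barcodes with a UMI, 77 and 79, the Ighv2-2 ratio was 0.749, with an interval that includes 1 (0.540 to 1.04).

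A few segments were lower by both counts. Ighv1-19 had 181 and 147 UMIs (ratio 0.6, 0.479 to 0.750) in 109 and 98 barcodes (0.656, 0.494 to 0.870), with no more than 3.87% of its UMIs in 1 barcode. Ighv5-9-1 had 82 and 58 UMIs in 46 and 38 barcodes (0.603, 0.382 to 0.947). Of the 20 Ighv segments lower by CPM, 13 were still past 1.5-fold without plasma cell-like barcodes and 10 by barcodes with a UMI, and of the 8 higher ones 3 and 1 were. For Igkv, 5 and 4 of the 16 lower ones and 6 and 4 of the 11 higher ones were. Igkv19-93 had a UMI in 107 WT and 204 CKO barcodes (1.39, 1.10 to 1.77), while 108 of its 235 WT UMIs were in 1 barcode. Ighv5-9-1, Ighv14-3, Ighv1-85 and Ighv1-69 were also chosen after their values were seen.

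**Figure D4:**
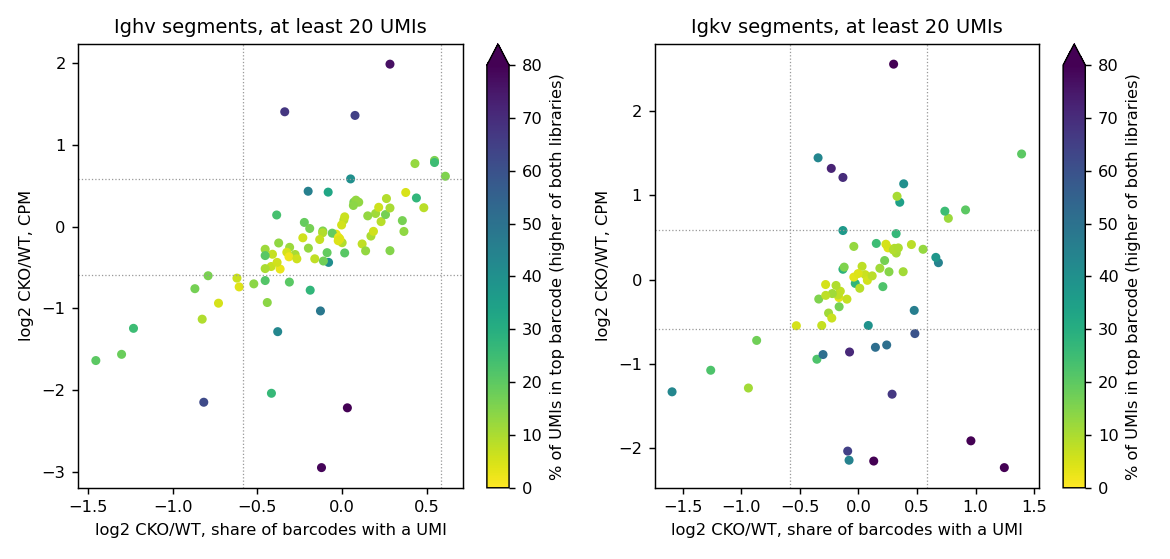
Each point is a segment with at least 20 UMIs: log2 of the CKO over WT ratio of CPM (y axis) against log2 of the ratio of barcode shares (x axis), for Ighv (left) and Igkv (right). Colour gives the percent of the segment's UMIs in its top barcode in the library where that percent was higher, and dotted lines mark 1.5-fold. Points far from 0 on the y axis and near 0 on the x axis, such as Ighv14-3 at a CPM ratio of 0.130 and a barcode ratio of 0.919, tend to be the dark ones.

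Plasma cells secrete antibody and carry it as a large share of their mRNA. The plasma cell-like cluster, found at the finer clustering resolution of 1.6, held 24 WT barcodes (0.334%) and 16 CKO barcodes (0.163%). These held 15% of Ighv and 26.1% of Igkv UMIs in WT, and 7.47% and 16.5% in CKO. Their median was 33.5 Ighv UMIs in WT (2 to 198) and 32.5 in CKO (4 to 108), and 50 Igkv UMIs in both. They did not share 1 dominant segment: 23 assigned WT barcodes used 17 Ighv segments and 16 CKO barcodes used 15. At most 3 barcodes shared a heavy segment, Ighv1-81 or Ighv2-2 in WT, and at most 2 a kappa segment, such as Igkv1-117 or Igkv9-124 in WT and Igkv8-30 in CKO.

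B-1-like barcodes used a pair of segments that follicular-like barcodes almost lacked, in both libraries. Ighv11-2 was assigned in 4 of 30 WT barcodes (13.3%, 3.76 to 30.7%) and 5 of 53 CKO barcodes (9.43%, 3.13 to 20.7%), against 0 of 530 and 0 of 466 follicular-like barcodes. The exact lower limits of the ratio were 11.7 and 8.06. Igkv14-126 was assigned in 7 of 38 (18.4%) and 3 of 32 (9.38%), against 0 of 182 and 0 of 215, with lower limits of 6.90 and 2.78. Both segments belong to the phosphatidylcholine list. With a minimum of 1 UMI, which gives more barcodes, Ighv11-2 was assigned in 10 of 102 WT and 15 of 128 CKO B-1-like barcodes and in 1 of 1490 and 4 of 1529 follicular-like ones. The corresponding ratios were 146 (20.8 to 6339) and 44.8 (14.3 to 185). For Igkv14-126 the shares were 11 of 94 and 14 of 118 against 3 of 926 and 4 of 1064, with ratios of 36.1 (9.54 to 202) and 31.6 (9.91 to 132).

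Among B-1-like barcodes at the 2-UMI minimum, all 4 Ighv segments with at least 5 assigned barcodes were at least 1.5-fold higher than in follicular-like barcodes in both libraries, which is 100%. A segment that reached 5 barcodes in this small subset had to be frequent there, so the count is a description only. The same holds for the counts of higher segments at 2 UMIs in the other subsets below. For Igkv 1 of 4 was higher, which is 25%, and 1 of 6 was lower, which is 16.7%. With 1 UMI and at least 20 barcodes over both subsets and libraries, 1 of 51 Ighv segments, Ighv11-2, and 1 of 32 Igkv segments, Igkv14-126, had intervals above 1 in both libraries, which is 1.96% and 3.12%. The lower one at 2 UMIs was Igkv10-96, on 1 barcode in each library, and it was past the fold in 0 of 5 alternatives. Ighv12-3, the other functional heavy segment of the list that was assigned, was found in 2 of 30 WT and 3 of 53 CKO B-1-like barcodes, against 0 of 530 and 1 of 466. With 1 UMI it was found in 4 of 102 and 4 of 128, against 1 of 1490 and 7 of 1529. These ratios of 58.4 (5.78 to 2878) and 6.83 (1.47 to 26.9) were also above 1, but rest on fewer than 20 barcodes.

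The rest of the list gave little. Ighv11-1 was assigned in 0 barcodes, with 5 UMIs in WT and 4 in CKO. Igkv4-91 was assigned in 2 WT and 3 CKO barcodes, none of them B-1-like. Of the phosphorylcholine-binding T15 list, Ighv7-1 was assigned in 5 and 4 barcodes, 1 of them B-1-like in each library, and Igkv7-33 in 0. Ighv9-3 and Ighv6-3 were also named for B-1-like barcodes, but at 2 to 4 barcodes in each library and with intervals that include 1.

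By family, the share of Ighv1 was lower in B-1-like barcodes. It was 30% in WT (14.7 to 49.4%) and 32.1% in CKO (19.9 to 46.3%), against 57.7% (53.4 to 62.0%) and 58.2% (53.5 to 62.7%) in follicular-like barcodes. The Igkv14 family held 21.1% (9.55 to 37.3%) and 12.5% (3.51 to 29.0%), against 3.85% and 2.33%.

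Transitional-like barcodes leaned to Igkv1-135 and, as did marginal zone-like and B-1-like barcodes, to the Ighv6 family. Igkv1-135 was assigned in 10 of 73 WT barcodes (13.7%) and 20 of 143 CKO barcodes (14%), against 7 of 182 (3.85%) and 7 of 215 (3.26%) follicular-like barcodes. Its ratios were 3.56 (1.22 to 11) and 4.3 (1.74 to 12), and with 1 UMI 2.14 (1.28 to 3.53) and 1.80 (1.21 to 2.65). At 2 UMIs 2 of 11 Igkv segments were higher in both libraries, which is 18.2%, and 2 of 6 were lower, which is 33.3%. The second higher one was Igkv1-117, at 16.4% and 14.7% against 7.14% and 8.37%, with intervals that include 1. The lower ones were Igkv12-44, at 8.22% and 5.59% against 13.7% and 13%, and Igkv12-46. Each of these was past the fold in 1 of 5 alternatives. With 1 UMI the ratios were 0.803 and 0.695 for Igkv12-44, and 0.605 and 1.04 for Igkv12-46. As a family Igkv1 held 37.0% (26.0 to 49.1%) and 40.6% (32.4 to 49.1%) of transitional-like barcodes, against 20.3% (14.7 to 26.9%) and 18.1% (13.2 to 24.0%). It also held 33.3% (19.6 to 49.5%) and 35.1% (24.4 to 47.1%) of marginal zone-like barcodes, and 26.3% and 25% of B-1-like ones.

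Ighv6-6 stood out among heavy segments of transitional-like barcodes. With 1 UMI it was assigned in 15 of 294 WT (5.10%) and 14 of 444 CKO barcodes (3.15%), against 10 of 1490 (0.671%) and 14 of 1529 (0.916%) follicular-like ones, ratios of 7.60 (3.19 to 18.9) and 3.44 (1.52 to 7.79). Ighv6-3, which shares 92.9% of V exon bases with Ighv6-6, had ratios of 2.29 (1.13 to 4.43) and 2.18 (1.16 to 4.0). These were 2 of 56 Ighv segments with intervals above 1 in both libraries, which is 3.57%, and Igkv1-135 was 1 of 39 Igkv segments, which is 2.56%. At 2 UMIs 5 of 10 Ighv segments were higher in both libraries, which is 50%: Ighv6-6, Ighv3-6, Ighv4-1, Ighv5-16 and Ighv6-3, each on 2 to 6 barcodes in a library. Only segments with at least 5 barcodes in this subset were counted, so the share of 50% is a description only. With 1 UMI the WT ratio of Ighv5-16 was 0.691. The Ighv1 family held 36.5% (25.6 to 48.5%) and 37.1% (27.1 to 48.0%) of transitional-like barcodes, below its follicular-like shares, and the Ighv6 family held 14.9% and 8.99%, against 4.53% and 4.29%. Ighv6 shares were much the same in marginal zone-like barcodes, at 16.3% and 9.09%, and in B-1-like ones, at 13.3% and 9.43%.

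In marginal zone-like barcodes Ighv6-6, Ighv6-3 and 2 rows of the Igkv2 family were more frequent than in follicular-like ones at 1 UMI. Their depth and that of B-1-like barcodes was above that of follicular-like barcodes, and its part in the shares below was not tested. With 1 UMI Ighv6-6 was assigned in 5 of 170 WT and 8 of 208 CKO barcodes, ratios of 4.38 (1.18 to 14.1) and 4.2 (1.53 to 10.7) against follicular-like barcodes. Ighv6-3 was assigned in 9 and 11, ratios of 2.54 (1.07 to 5.48) and 2.70 (1.22 to 5.53). At 2 UMIs the libraries parted for Ighv6-3, at 7 of 49 in WT (14.3%) and 1 of 44 in CKO (2.27%), against 19 of 530 and 14 of 466 follicular-like ones. These 2 of 51 Ighv segments make 3.92%, and 2 of 33 Igkv segments, Igkv2-107 and Igkv2-109, make 6.06%. Igkv2-109, at chr6:68302427-68303158, was assigned in 13 of 184 (7.07%) and 10 of 253 (3.95%) barcodes, ratios of 5.45 (2.29 to 13.1) and 2.63 (1.07 to 6.16). At 2 UMIs 1 of 5 segments of each locus was higher, which is 20%: Ighv1-15, on 3 and 2 barcodes, and Igkv1-117, at 11.9% and 13.5%. Igkv12-44 was the 1 of 6 that was lower, which is 16.7%. The intervals of all 3 include 1 in both libraries. Igkv1-117 was past the fold in 0 of 4 alternatives, Ighv1-15 in 3 of 5 and Igkv12-44 in 2 of 5, and with 1 UMI the CKO ratio of Ighv1-15 was 0.840.

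The Igkv2-107 row, at chr6:68326098-68326752, is annotated as a pseudogene. A UMI of it was present in 15 of 531 WT marginal zone-like barcodes (2.82%, 1.59 to 4.62%) and 16 of 710 CKO ones (2.25%, 1.29 to 3.63%). In follicular-like barcodes it was present in 4 of 3109 (0.129%) and 3 of 3492 (0.0859%). It was not limited to marginal zone-like barcodes: B-1-like barcodes had it in 1.67% (0.456 to 4.21%) and 0.621% (0.0753 to 2.23%), with intervals that overlap the marginal zone-like ones, and transitional-like barcodes in 0.744% and 0.389%. An Igkv2-109 UMI was present in 3.58% and 2.54% of marginal zone-like, 3.33% and 1.24% of B-1-like, 1.49% and 1.49% of transitional-like and 0.611% and 0.487% of follicular-like barcodes. No barcode dominated Igkv2-107, since its 41 WT UMIs came from 39 barcodes and its 38 CKO UMIs from 37. Its UMIs and those of Igkv2-109 were seldom in the same barcode, with 1 of 531 and 0 of 710 marginal zone-like barcodes holding both. The nearest row by V exon, Igkv2-112, shares 87.1% of its bases. Igkv2-107 and Igkv2-109 were chosen after their values were seen.

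**Figure D5:**
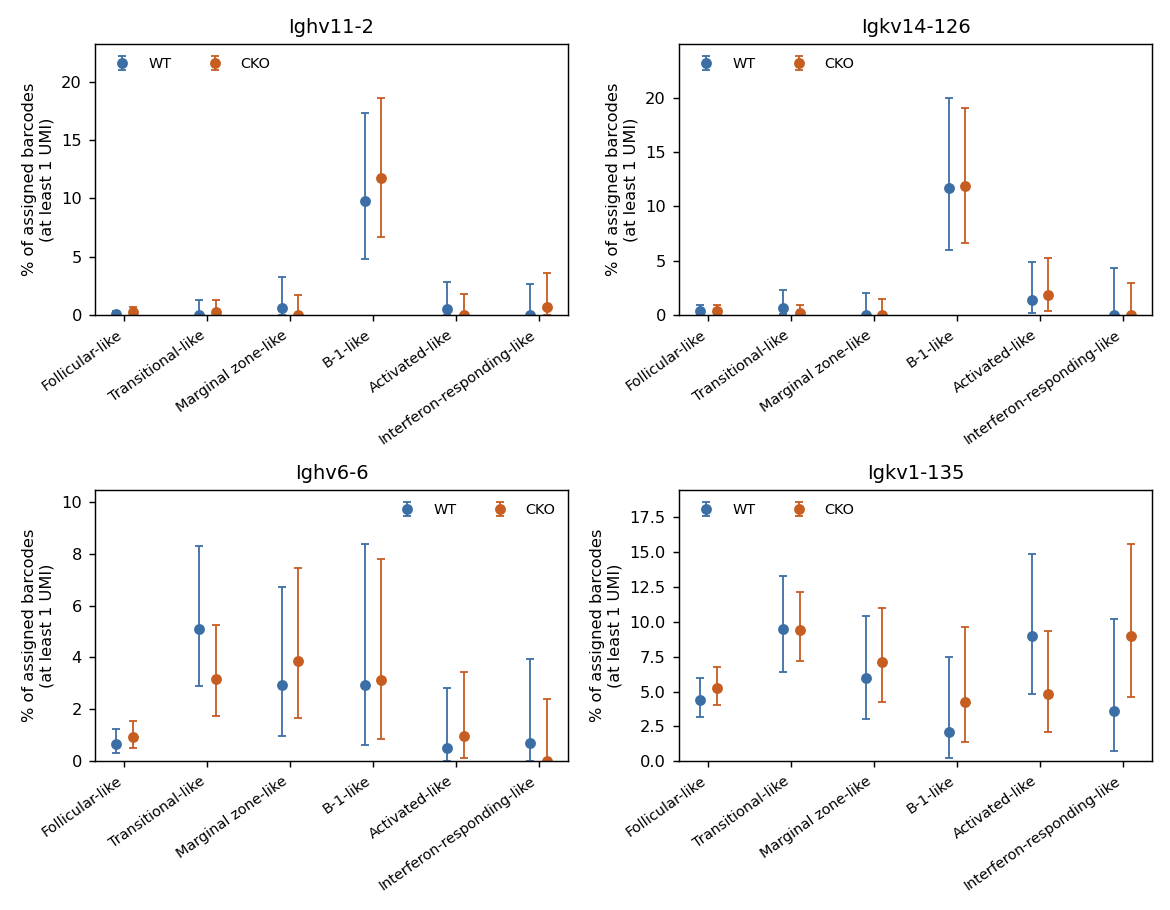
Share of barcodes assigned with at least 1 UMI, in percent, for Ighv11-2, Igkv14-126, Ighv6-6 and Igkv1-135 in 6 B cell subsets of the WT and CKO libraries. Points are shares and bars exact 95% intervals for counting error, and each panel has its own scale. Ighv11-2 and Igkv14-126 stand between 9.80% and 11.9% in B-1-like barcodes and at most at 0.376% in follicular-like ones, and Igkv1-135 stands at 9.48% and 9.45% in transitional-like barcodes against 4.43% and 5.26%.

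Other subsets showed few differences. In activated-like barcodes 3 of 6 Ighv segments were higher at 2 UMIs (50%), namely Ighv1-76 (WT ratio 0.960 with 1 UMI), Ighv1-74 and Ighv9-3, and in interferon-responding-like barcodes 3 of 4 were (75%), namely Ighv2-2, Ighv1-64 and Ighv3-6. These counts at 2 UMIs also cover only segments frequent in the subset itself. With 1 UMI 0 of 54 and 0 of 51 of their Ighv segments had intervals above 1 in both libraries, which is 0.0% in each. Ighv1-9, chosen after its values were seen, was the 1 of 51 whose intervals lay below 1 in interferon-responding-like barcodes (1.96%), at 0 of 139 and 0 of 153 against 42 of 1490 and 44 of 1529. In cycling-like barcodes Igkv1-110 was the 1 of 6 kappa segments lower at 2 UMIs (16.7%), and with 1 UMI its intervals included 1. The part of the erythroid and natural killer genes in this cluster, given above, was not tested. The cycling-like cluster is led by Jchain and held the barcode with 198 Ighv14-3 UMIs.

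Heavy and kappa segments could be read in the same barcode in 221 cases, 121 in WT and 100 in CKO. They formed 200 different pairs, of which 184 occurred once. Ighv11-2 with Igkv14-126 was the most frequent, in 4 barcodes, 2 in each library, all of them B-1-like. All 4 barcodes assigned Ighv11-2 together with any kappa segment carried Igkv14-126. With 1 UMI the pair was found in 15 of 2340 paired barcodes and in 14 of the 95 that were B-1-like (14.7%, 8.30 to 23.5%), 6 in WT and 8 in CKO. Of 19 barcodes with Ighv11-2 and a kappa segment 15 had Igkv14-126. The next most frequent pair, Ighv1-26 with Igkv1-135, was found in 11 barcodes, of 127 paired barcodes with that heavy segment and 147 with that kappa segment. Ighv12-3 with Igkv4-91 was found in 1 barcode and Ighv7-1 with Igkv7-33 in 1, both B-1-like and in CKO. A 3′ tag holds no junction sequence, so a shared pair is not a clone.

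At the 2-UMI minimum no pair of another subset had more than 2 barcodes. Follicular-like barcodes had 70 pairs among 73 paired barcodes, the top ones being Ighv1-26 with Igkv12-46, Ighv2-6 with Igkv14-130 and Ighv5-4 with Igkv12-44. In the 16 transitional-like and 8 marginal zone-like paired barcodes no pair occurred more than once.

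Some barcodes held more than 1 segment of a locus. UMIs of 2 or more Ighv segments were found in 368 WT and 493 CKO barcodes, and of 2 or more Igkv segments in 349 and 605. High doublet scores were more frequent among them: 17.9% and 20.5% for Ighv, against 10.7% and 10.0% of barcodes with 1 segment, and 18.3% and 18.8% for Igkv against 10.8% and 10.1%. The Igkv pair most often seen together was Igkv10-96 with Igkv19-93, in 15 barcodes of both libraries. Lambda light chains, the alternative to kappa, took 27.5% of light chain V UMIs in WT and 26.5% in CKO, 17.8% and 19.9% in follicular-like and 26.0% and 31.8% in B-1-like barcodes. These are shares of UMIs and not of cells. Plasma cell-like barcodes held 949 of the 2016 lambda V UMIs in WT and 544 of the 2561 in CKO.

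The genes around the V segments were taken from lists of the pathway and read on the same CPM scale, against the 8.6% of all genes past 1.5-fold. Of 14 constant and lambda genes tested, 0 were higher in CKO and 3 lower, with a median log2 ratio of -0.23. The 3 were class-switched heavy chain constant genes: Ighg2c had 13618 UMIs in WT and 13 in CKO, Ighg2b had 2142 and 173, and Ighg1 had 67 and 0. In WT 41.8% of Ighg2c UMIs and 86.6% of Ighg2b UMIs were in 1 barcode. Ighm, the IgM constant gene, had a ratio of 0.876 (0.871 to 0.882), and Igkc 0.811 (0.808 to 0.814). Of 6 receptor complex genes and 14 factors of V promoters and the loci, 0 were past the fold in either direction, with medians of 0.05 and 0.10.

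Some genes of early B cell development stood higher in the CKO library. Of 10 recombination genes 3 were higher and 0 lower: Rag1 and Rag2, which cut beside V segments, at ratios of 2.52 (1.85 to 3.48) and 1.87 (1.04 to 3.50), and Dntt, which adds bases at the joints, at 5.91 (3.05 to 12.8). Of 3 surrogate light chain genes tested 2 were higher, Vpreb1 at 5.84 (3.65 to 9.82) and Igll1, with 1 UMI in WT and 100 in CKO (73.9, 13 to 2948). In CKO 37.5% of Dntt, 25.3% of Vpreb1 and 25% of Igll1 UMIs were in 1 barcode. An unnamed cluster led by Rag1, Il7r and Sox4 held 14 WT and 61 CKO barcodes, with 3 and 23 Ighv UMIs and 10 and 31 Igkv UMIs, and its part in these ratios was not tested. Of 5 secretion genes 1 was lower, Jchain, which links secreted IgM and IgA, at 0.489 (0.480 to 0.499).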

How the data were processed

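Both libraries were made with 10x 3′ chemistry and deposited as a matrix of raw UMI counts per gene and barcode, written by cellranger 6.0.2 per the file headers. Cell Ranger 5.0.0, Seurat 4.0.3 and mm10 are named by the submitters' processing notes. Groups come from the labels. Segments and lists were chosen with earlier results of these data known.

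Barcodes with 200 to 6000 genes and under 10% mitochondrial UMIs were kept. B cell barcodes (Cd79a at least 2 UMIs, Cd3d and Cd3e 0) were clustered with scanpy 1.11.5 and leidenalg 0.10.2 on 2000 variable genes without immunoglobulin and T cell receptor genes (30 components, 15 neighbours, resolution 1, seed 0). Doublets were scored with Scrublet and kept. Ighv5-8 and Ighv1-13 each stand under 2 gene IDs. Intervals are exact (scipy 1.17.1). The calculations were tested on simulated data.

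Named segments were the 10 most used per locus, the highest and lowest CKO over WT ratios with at least 20 assigned barcodes, segments at least 1.5-fold apart from follicular-like barcodes in both libraries (at least 5 barcodes where higher), the top 3 pairs per subset, and the lists. Segments named for plasma cell-like barcodes or for lacking UMIs were chosen after their values were seen. Alternatives to each setting were run. The list of switching and hypermutation genes is not reported here.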

Additional observations from a re-analysis of the deposited data

Results flagged for a closer look

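V segment UMIs also appeared outside the B cell barcodes. In the WT library 3 barcodes with at least 20 V UMIs each held 221 Ighv and Igkv UMIs together, 1.62% of all V UMIs of that library, with up to 115 in 1 barcode. All 3 had a Cd3d or Cd3e UMI, a median of 14 Cd79a UMIs and a median of 877 Jchain UMIs, and the CKO library had 0 such barcodes.

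Barcodes that met neither the B cell nor the T cell definition also held V UMIs. Among 2122 such WT barcodes 19.5% had an Ighv UMI and 16.4% an Igkv UMI. Among 2052 such CKO barcodes the shares were 9.89% and 8.63%. In T cell barcodes the shares were 0.385% and 0.473% in WT and 0.414% and 0.138% in CKO.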

How the results depend on the processing

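No paired analysis was possible because each genotype has 1 library. The CKO over WT ratio of assigned shares (Ighv 0.764, Igkv 1.01) was 0.887 for Ighv with 1 UMI, 0.678 with 3 UMIs and 0.646 after thinning, and 1.21 for Igkv after thinning. Segments past 1.5-fold in usage numbered 7 for Ighv, with 0 of 9 at 3 UMIs and 1 of 17 in follicular-like barcodes alone. For Igkv there were 3, with 7 of 58 at 1 UMI, 0 of 4 at 3 UMIs, 5 of 15 with doublets removed and 1 of 6 in follicular-like barcodes. By CPM, 1172 genes were past 1.5-fold, 2435 with a minimum of 5 UMIs, 389 with 100 and 455 at 2-fold. The Ighv count of 28 was 14 with 100 UMIs, 16 without plasma cell-like barcodes, 13 at 2-fold and 11 by barcodes. The Igkv count of 27 was 49 with 5 UMIs, 13 with 100, 11 without plasma cell-like barcodes, 15 at 2-fold and 12 by barcodes. Subset calls numbered 10 for Ighv, 5 with UMI gates in place of clusters, 35 at 1 UMI and 0 at 3, and 8 for Igkv, 4 at resolution 0.6, 3 at 1.6, 5 with gates, 30 at 1 UMI and 3 at 3 UMIs. The CKO share of Ighv11-2 in B-1-like barcodes was 23.1% at 3 UMIs, and that of the farthest Igkv position group 38.7% at 1 UMI. Directions turned for the usage ratios of Ighv1-53 (0.935 at 1 UMI, 0.564 thinned), Ighv1-55 (0.564 thinned, 0.995 in follicular-like barcodes) and Igkv5-43 (0.301 thinned). Each of the thinned usage ratios rests on fewer than 20 assigned barcodes over both libraries. The smaller log2 ratio against follicular-like barcodes turned in 1 or both libraries for several calls. In transitional-like barcodes these were Ighv5-16 (-0.53 at 1 UMI), Ighv3-6 (-0.60 at 3 UMIs), Ighv6-3 (-0.59 with gates), Igkv1-117 (-0.63 with gates), Igkv12-44 (0.19 with gates) and Igkv12-46 (0.16 at resolution 1.6, 0.79 with gates, 0.055 at 1 UMI, 0.30 at 3 UMIs). In marginal zone-like barcodes they were Ighv1-15 (-0.087 with gates, -0.25 at 1 UMI) and Igkv1-117 (-0.011 at resolution 1.6, -0.73 with gates). In B-1-like barcodes they were Ighv9-3 (-1.06 with gates) and Igkv10-96 (0.14 at resolution 1.6, 1.44 with gates, 0.15 at 1 UMI, 1.82 at 3 UMIs). The cause was not tested. Counts by barcodes with a UMI, settings without shared barcode sequences and pairs at 1 UMI were chosen after seeing the data. Usage after thinning to 1000 UMIs gave no count, since no segment reached the minimum. Checks of recombination signals and of the octamer were not run. Few V UMIs per barcode limit all usage values.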
